A study of Caenorhabditis elegans with 2 samples.

Results

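Of 346 genes for small nucleolar RNAs (snoRNAs) in the Caenorhabditis elegans annotation, 115 had the summit of a pooled candidate region of an HLH-13::GFP ChIP-seq experiment inside the gene or within 100 bp of it. These genes were selected on the measured positions of the summits, so that they had a region at all is not a result. The 115 genes lay at 114 distinct regions of the 30000 in the pooled list, since C51F7.3 and C51F7.4 shared the region of highest signal. Where a gene had more than 1 candidate region, as 7 did, the one of highest signal was taken.

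Chromatin came from whole mixed-sex late embryos, 3.5 hours old and obtained by egg bleaching, of strain OP744, which is mutant for unc-119 (allele tm4063) and carries the transgene array wgIs744 with a rescuing unc-119(+) copy. The array also carries hlh-13::TY1::EGFP::3xFLAG. It fuses HLH-13, a basic helix-loop-helix (bHLH) protein related to vertebrate Ptf1a, to TY1, EGFP and FLAG tags, and an antibody against GFP was used for precipitation. There was 1 group of 2 biological replicates from 1 transgenic line, and the control library was the same for both. Whole embryos mix all cell types, so in which cells a region was bound cannot be told apart. The lists of regions hold no read counts, so the depth of the libraries was unknown. Signal is the submitters' value for the enrichment of each region, on a scale not given in the sources used here, and it was used only to order and describe regions. Regions of 1 list share their libraries and are not replicates, so groups of genes are described by medians and quartiles, with the values of both replicates and without a test.

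Small nucleolar RNAs guide the chemical modification of ribosomal and spliceosomal RNA. Those of the C/D class direct methylation of the ribose through fibrillarin, and those of the H/ACA class direct the change of uridine to pseudouridine through dyskerin. Many animal snoRNAs are cut out of the introns of host genes transcribed by RNA polymerase II, while others have promoters of their own. RNA polymerase III reads tRNA genes from an internal promoter of an A box and a B box, both bound by the factor TFIIIC, and ends at a run of T on the coding strand. In Saccharomyces cerevisiae the snoRNA gene SNR52 carries an A box and a B box in a leader ahead of the mature RNA.

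Such a leader was found in front of many of the snoRNA genes with the highest signal. The sequences below are read 5′ to 3′ on the strand of the gene from the RefSeq copy of WBcel235 (ce11), and the capitals mark the A box and, after it, the B box. They are shown because both boxes began ahead of the annotated snoRNA, where the summits lay. At Y43F8C.22 the last base of the B box is the first base of the gene. C51F7.3 is printed as a whole unit (chrV:12303599-12303791, plus strand), from 10 bases before its A box to 8 bases past the annotated gene, with a run of TTTT behind the gene also in capitals. The other genes are printed from 10 bases before the A box to the first 10 bases of the annotated snoRNA: W03C9.9 (chrII:11960816-11960907, plus strand), T03F7.8 (chrV:11314193-11314267, plus strand), C10C6.8 (chrIV:11474182-11474267, minus strand), Y43F8C.22 (chrV:19643178-19643250, minus strand) and F32E10.10 (chrIV:7574058-7574131, plus strand). C10C6.8 had 1 mismatch in the B box, and the other 5 leaders matched both boxes exactly.
C51F7.3: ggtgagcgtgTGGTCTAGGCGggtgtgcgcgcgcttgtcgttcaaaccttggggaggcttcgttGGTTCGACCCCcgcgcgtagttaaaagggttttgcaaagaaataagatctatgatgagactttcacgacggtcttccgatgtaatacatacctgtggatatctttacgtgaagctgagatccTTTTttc
W03C9.9: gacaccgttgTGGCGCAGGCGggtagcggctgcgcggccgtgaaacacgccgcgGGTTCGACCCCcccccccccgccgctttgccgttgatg
T03F7.8: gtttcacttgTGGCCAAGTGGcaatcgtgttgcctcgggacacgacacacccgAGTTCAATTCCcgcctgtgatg
C10C6.8: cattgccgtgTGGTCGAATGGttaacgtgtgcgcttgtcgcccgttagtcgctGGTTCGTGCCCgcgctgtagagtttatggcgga
Y43F8C.22: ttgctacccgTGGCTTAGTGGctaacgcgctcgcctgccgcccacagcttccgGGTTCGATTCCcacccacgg
F32E10.10: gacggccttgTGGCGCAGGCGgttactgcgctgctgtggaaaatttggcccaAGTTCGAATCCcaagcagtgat

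The pair of boxes was not present at every gene of high signal. ZK994.7, the gene of highest signal with no pair around its summit on either strand, is shown from 100 bases upstream to the end of the gene (chrV:8500479-8500645, plus strand), with the base at the summit in capitals.
ZK994.7: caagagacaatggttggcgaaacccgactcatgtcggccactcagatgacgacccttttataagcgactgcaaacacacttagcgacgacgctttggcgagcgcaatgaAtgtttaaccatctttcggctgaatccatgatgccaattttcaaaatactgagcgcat

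Leaders of copies of a snoRNA are shown as well, because the copies differed in signal. C46C2.8 (chrIV:9191324-9191398, minus strand) and C53B7.8 (chrX:6867871-6867947, plus strand) are 97.2% identical over 71 aligned bases of the gene, and their leaders, aligned without gaps at the A box from 10 bases before it, are equal at 75.4% of 65 bases. ZK643.9 (chrIII:8937707-8937776, plus strand) and K09E9.5 (chrX:15619431-15619500, plus strand) are 94.7% identical over 131 aligned bases of the gene, with 81.7% of 60 leader bases equal. Capitals again mark the A box and the B box, which ends inside the gene at ZK643.9 and K09E9.5.
C46C2.8: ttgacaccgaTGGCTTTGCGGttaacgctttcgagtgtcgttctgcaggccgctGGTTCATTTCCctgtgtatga
C53B7.8: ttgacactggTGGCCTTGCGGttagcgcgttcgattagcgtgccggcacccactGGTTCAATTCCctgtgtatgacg
ZK643.9: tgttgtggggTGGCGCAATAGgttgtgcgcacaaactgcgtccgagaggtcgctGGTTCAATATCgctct
K09E9.5: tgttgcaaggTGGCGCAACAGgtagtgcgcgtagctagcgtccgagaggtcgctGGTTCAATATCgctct

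The 115 genes spanned most of the range of signal in the pooled list. Their pooled signal had a median of 67.6 (quartiles 38.0 and 198, lowest 25.9, highest 668), beside a median of 34.2 (quartiles 29.3 and 42.1) over all 30000 candidates. The lists keep background regions, and the submitters' optimal set, which is the 423 pooled candidates of highest signal, holds 1.41% of the candidates. Of the 115 genes, 50 (43.5%) had an optimal peak, a count that is read only as a description because the same list chose the genes. Among the 50 genes with an optimal peak the pooled signal ranged from 89.5 to 668 with a median of 229, and among the 65 others it ranged from 25.9 to 81.2 with a median of 42.5. The 50 had a median of 111 in replicate 1 and 116 in replicate 2, and the 65 had medians of 24.6 (52 genes with a region) and 28.0 (53 genes). All 50 had a region in both replicates, against 42 of the 65. Ranked among the 423 best regions of their own list, 49 of the 50 stood there in replicate 1, 47 in replicate 2 and 46 in both. The optimal set was drawn from the replicate and pooled lists by the irreproducible discovery rate, so this agreement was largely set by the choice of peaks.

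The genes of highest signal stood high in both replicates. The region shared by C51F7.3 and C51F7.4, in the gene frm-7, had a signal of 668 in the pooled list, 290.3 in replicate 1 and 368 in replicate 2. C51F7.4 was annotated over the leader printed above for C51F7.3: it begins 10 bases before the A box, so 1 leader and 1 summit account for both genes. W03C9.9, between genes, had 616 in the pooled list, 315 in replicate 1 and 299 in replicate 2. T03F7.8, which lies in an intron of the cuticlin-like gene cutl-18 on the opposite strand, had 515 in the pooled list, 249.6 in replicate 1 and 256 in replicate 2. These 3 regions stood at ranks 1, 2 and 5 of the 30000. T06C12.16, between genes, had 438 pooled, 209 in replicate 1 and 227 in replicate 2. C10C6.8, in an intron of the P-type ATPase gene catp-8, had 351 pooled, 144 in replicate 1 and 202 in replicate 2. Y43F8C.22 and F32E10.10 followed with pooled signals of 327 and 301. ZK994.7 and ZK265.10, whose signals of 516 and 505 also rank among these, are described further on. Each of the other genes named here except C51F7.4 had a leader with both boxes, with at most 2 mismatches in all.

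A leader box pair was then sought at all 346 snoRNA genes. It was defined, after the first genes had been looked at, as an A box followed by a B box on the strand of the gene. Both boxes had to lie wholly between 150 bases upstream and 20 bases into the gene, 25 to 70 bases apart from start to start. At most 2 mismatches in all to the boxes known from tRNA genes were allowed. Such a pair was found at 56 genes. Of these, 46 (82.1%) had a candidate region and 40 (71.4%) an optimal peak. Of the 290 snoRNA genes without a pair, 69 (23.8%) had a candidate region and 10 (3.45%) an optimal peak. Read from the side of the signal, the pair was present at 40 of the 50 genes with an optimal peak (80%), at 6 of the 65 genes with a weaker region (9.23%) and at 10 of the 231 genes with none (4.33%). In windows of the same length, 170 bases on 1 strand, centred on the summits of the 29542 candidates at no snoRNA or tRNA gene, it was found in 494 (1.67%), and in 6 of the 222 optimal peaks of that kind (2.70%). Searched from 50 bases upstream into the gene, 609 of the 612 annotated nuclear tRNA genes (99.5%) held it.

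Signal differed with the pair in both replicates. The 46 genes with a pair had a median pooled signal of 206 (quartiles 129 and 255), and the 69 without one a median of 42.9 (quartiles 31.2 and 59.0), a difference of 163. An exact A box and an exact B box, each on either strand within 100 bp of the summit, were present at 17 of the 115. Their median was 251, against 54.2 for the other 98, which lacked at least 1 of the boxes. Both boxes were present in 1.38% of all 30000 candidates. That search allows no mismatch but takes no account of the gene or of the order and spacing of the boxes. In replicate 1 the medians for the leader pair were 104 with a pair and 25.9 without, and in replicate 2 they were 114 and 29.1. The groups overlapped, because 10 genes without a pair had an optimal peak and 6 with a pair did not. Among the 72 genes whose summit lay upstream, where the place of the summit is alike, the median was 214 for 45 genes with a pair and 46.3 for 27 without. The number of mismatches from 0 to 2 went with medians of the same order. The median was 247 for 16 exact pairs, 193 for 18 with 1 mismatch and 204 for 12 with 2, and it was 63.4 for 8 genes whose best pair had 3 mismatches, 34.3 for 15 with 4 and 42.7 for 46 with none found.

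**Figure D1:**
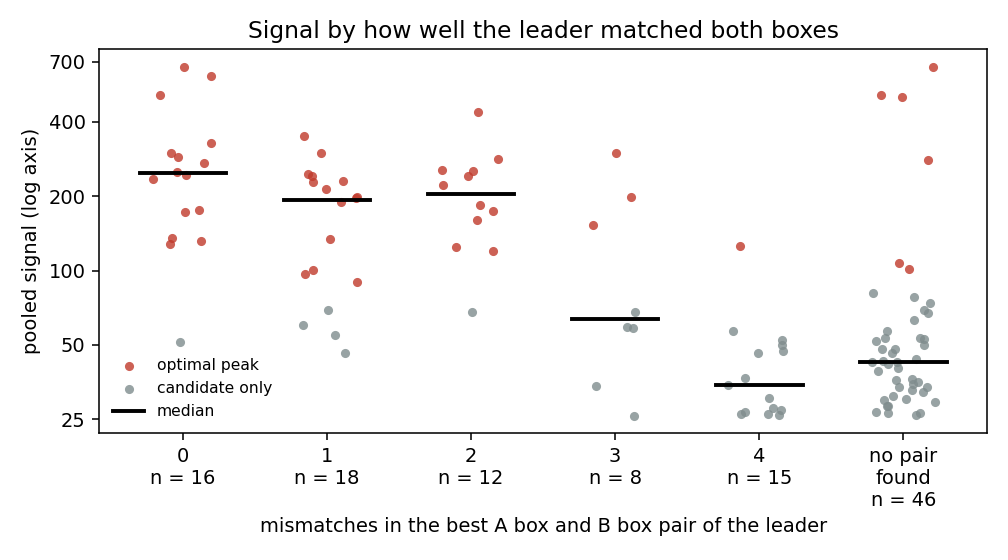
Pooled signal (log axis) of the 115 snoRNA genes by the number of mismatches in the best A box and B box pair starting ahead of the gene. Each point is 1 gene, red where it had an optimal peak, and bars are medians. The medians for 0, 1 and 2 mismatches (247, 193 and 204) stand above those for 3 and 4 mismatches (63.4 and 34.3) and for no pair (42.7). There are 4 genes above a signal of 200 with no pair found ahead of the gene. Among these, C51F7.4 had a pair inside the gene and B0334.12 a pair near the summit on the other strand.

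The place of the boxes in front of the gene was similar at most of these genes. In 39 of the 46 genes with a pair and a region the A box began 42 to 44 bases before the B box (median 44, range 31 to 66), and in 432 of 609 tRNA genes the same held (median 44). The A box began at a median offset of -59 bp from the annotated gene start (quartiles -65 and -55, range -106 to -50) and the B box at a median offset of -15 bp (quartiles -20 and -12, range -75 to -6). A B box is 11 bases long, so where it began fewer than 11 bases before the gene it reached into it. The summit was upstream in 45 of the 46 genes, with a median offset of -46 bp (quartiles -60 and -27). In 38 of these 45 it lay between the start of the A box and the end of the B box.

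**Figure D2:**
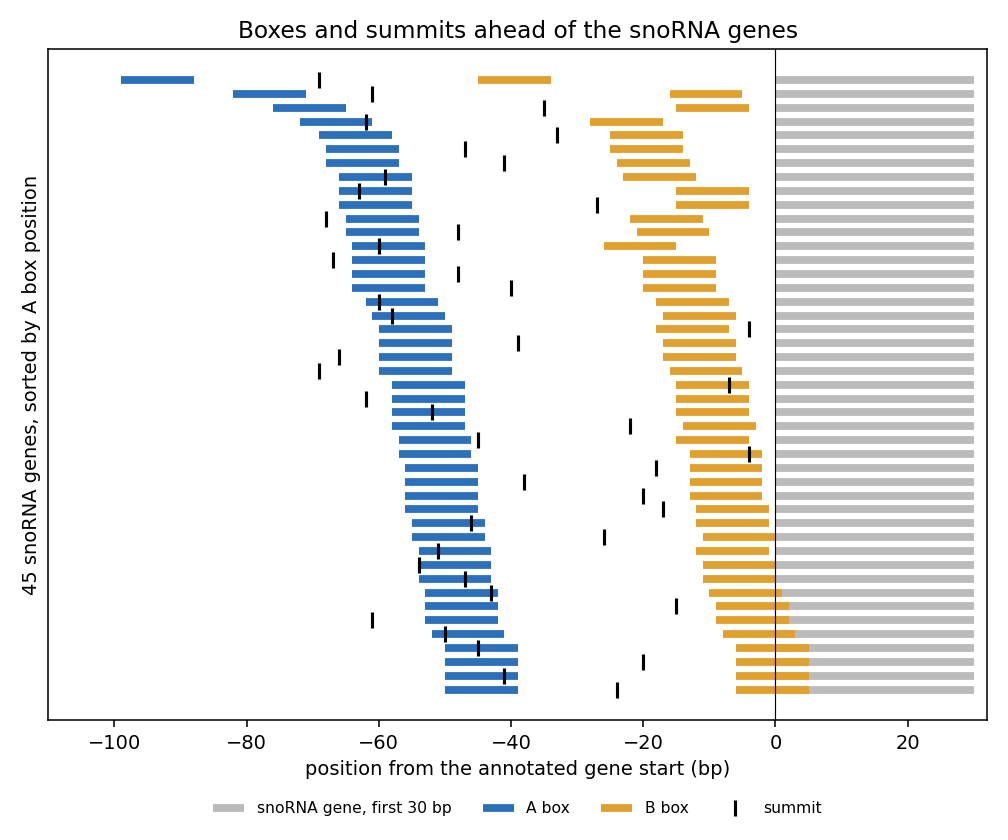
Positions of the A box (blue), the B box (orange) and the summit (black tick) relative to the annotated gene start (grey) in the 45 snoRNA genes with a leader box pair and an upstream summit, 1 gene per line. In 38 of the 45 genes the summit falls between the start of the A box and the end of the B box.

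At 10 genes with an optimal peak no leader pair within 2 mismatches was found. C51F7.4 is the gene annotated over the leader of C51F7.3. D1046.6, in an intron of the cleavage factor gene cfim-2, had a pooled signal of 300.0, with 143 in replicate 1 and 154 in replicate 2, and its best pair had 3 mismatches, as did those of W01C9.6 (198) and Y53F4B.48 (153). At D1046.6 an annotated pseudogene without a name also lay at the summit. B0334.12, on the opposite strand in an intron of the potassium channel gene twk-5, was the only gene with an optimal peak downstream of it. Its signal was 281 pooled, 142 in replicate 1 and 133 in replicate 2, and a pair with 1 mismatch and the boxes 43 bases apart lay near that summit on the other strand, which is the strand of twk-5. At ZK994.7, ZK265.10, C14C10.8 and Y37E3.20 no pair with up to 4 mismatches was found within 100 bp of the summit on either strand, and at W01H2.11 the best had 4. ZK994.7, in an intron of the peroxidasin gene pxn-1, had 516 pooled, 227 in replicate 1 and 285 in replicate 2, with the summit 9 bp inside the gene. ZK265.10, between genes, had 505 pooled, 238 in replicate 1 and 268 in replicate 2, with the summit 67 bp upstream. Both values exceed the median of 247 for the genes with an exact pair.

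The pair without an optimal peak occurred at 6 genes with a candidate region. These were C53B7.8 (pooled signal 69.5), W06A7.12 (67.8), H04D03.5 (60.4), F19H8.6 (55.0), R166.7 (51.6) and K09E9.5 (46.2). At W06A7.12 the summit lay downstream of the gene, away from the pair. R166.7, in an intron of the kinase gene mnk-1, had an exact pair 44 bases apart, with 22.6 in replicate 1 and 29.1 in replicate 2. A further 10 genes had a pair and no candidate region within 100 bp. Exact pairs among them stood at Y6B3B.15 and Y59E1B.14, whose nearest pooled summits were 2059 and 2439 bp away. The nearest pooled summit was 140 bp from C24A1.8, 142 bp from D1054.17 and 217 bp from K02C4.7.

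Of the 33 snoRNA genes on the X chromosome, 7 had a candidate region and 1 an optimal peak (W01H2.11, with a signal of 107 and no leader pair), against 108 and 49 of the 313 on the autosomes. Of the 4 snoRNA genes on X with a leader pair, 2 had a candidate region and 0 an optimal peak, against 44 and 40 of the 52 on the autosomes. The 2 on X with a region, C53B7.8 and K09E9.5, are the copies printed above. C46C2.8 on chromosome IV had a signal of 255 pooled, 138 in replicate 1 and 121 in replicate 2, and its copy C53B7.8 had 69.5 pooled, 45.2 in replicate 1 and 24.6 in replicate 2. ZK643.9 on chromosome III had 229 pooled, 104 in replicate 1 and 127 in replicate 2, and its copy K09E9.5 had 46.2 pooled, no region in replicate 1 and 32.1 in replicate 2. The sequence around its summit was not wholly unique: at K09E9.5 80% of 32-mers (50 bp to either side) have a single place in the genome, against 100% at ZK643.9 and at both copies of the other pair, and the part of this in its signal was not tested. All 4 leaders held a pair, with 2 mismatches at C46C2.8 and 1 at each of the others. These copies were picked after their values had been seen, and what part the chromosome had was not tested.

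Signal was also compared by the place of the summit. It lay upstream of the annotated gene at 72 genes, inside it at 22 and downstream at 21. An optimal peak was present at 46 of the 72, at 3 of the 22 and at 1 of the 21. The median pooled signal was 135 (quartiles 52.97 and 243) with an upstream summit, against 42.6 (quartiles 30.2 and 56.8) for the 43 genes with a summit inside or downstream, a difference of 91.9. In replicate 1 the median was 78.4 with an upstream summit and 26.0 otherwise, and in replicate 2 it was 73.3 and 28.3. Upstream summits lay a median of 43.5 bp before the gene (quartiles 28.5 and 59.3), and 44 of the 46 with an optimal peak lay 15 to 70 bp before it. Among the 69 genes without a leader pair the difference between upstream and other summits was 3.70.

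The 3 optimal peaks with a summit inside the gene were those of C51F7.4, ZK994.7 and C14C10.8. C14C10.8, in the gene ril-2, had a signal of 125 pooled, 70.2 in replicate 1 and 50.5 in replicate 2. The next inside summit was that of Y67A10A.14, with 73.8 pooled, 40.6 in replicate 1 and 32.2 in replicate 2. Without the region shared by C51F7.3 and C51F7.4 the median was 134 over 71 genes with an upstream summit and 36.2 over 21 genes with a summit inside.

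**Figure D3:**
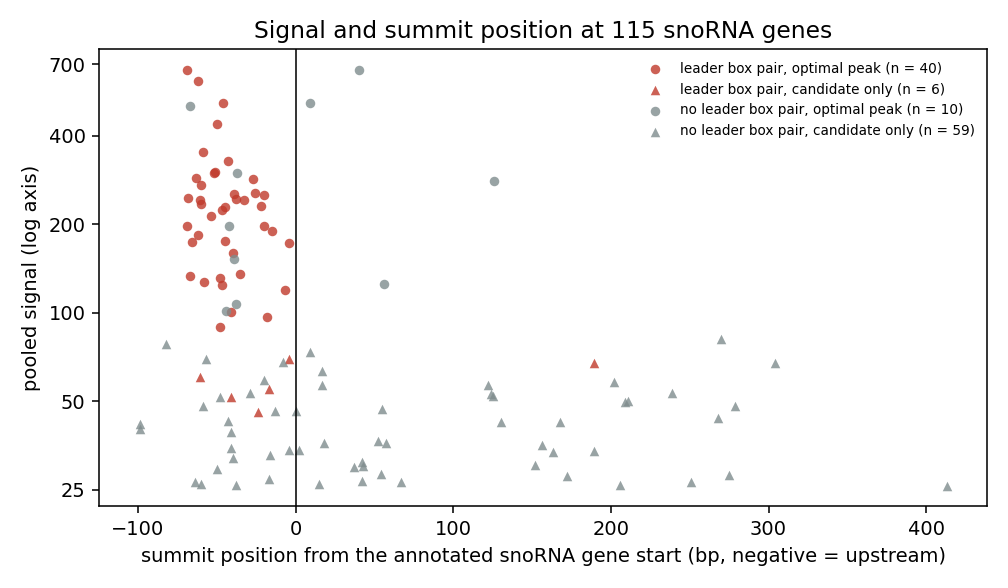
Pooled signal (log axis) of the 115 snoRNA genes against the position of the summit from the annotated gene start, with negative positions upstream; red marks genes with a leader box pair and circles mark optimal peaks. Of the 50 optimal peaks 46 lie upstream of the gene, and 40 of those 46 have the pair.

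Intronic and intergenic genes held optimal peaks in shares close to their shares of the annotation. Of the 50 genes with an optimal peak 52% were intronic and 36% intergenic, beside 48.8% and 35.8% of all 346 snoRNA genes. Intronic genes, inside an intron of a protein-coding gene on either strand, numbered 51, with 26 optimal peaks and a median signal of 89.5 (quartiles 35.8 and 238). Intergenic genes numbered 49, with 18 optimal peaks and a median of 56.9 (quartiles 36.7 and 176), and 15 genes that overlapped an exon had 6 optimal peaks and a median of 53.4. The difference between intronic and intergenic genes was 32.6 pooled. For the same genes the medians were 56.7 and 38.7 in replicate 1 and 47.9 and 36.3 in replicate 2. When members were found anew in the other replicate's list, the difference was 8.72 without replicate 1 and -3.82 without replicate 2. Its direction was thus not stable across sets of genes. Among genes with a pair the median was 191 for 26 intronic genes and 223 for 17 intergenic genes, and among genes without one it was 35.5 for 25 intronic genes and 44.4 for 32 intergenic genes. In both places the median was higher with a pair than without one.

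**Figure D4:**
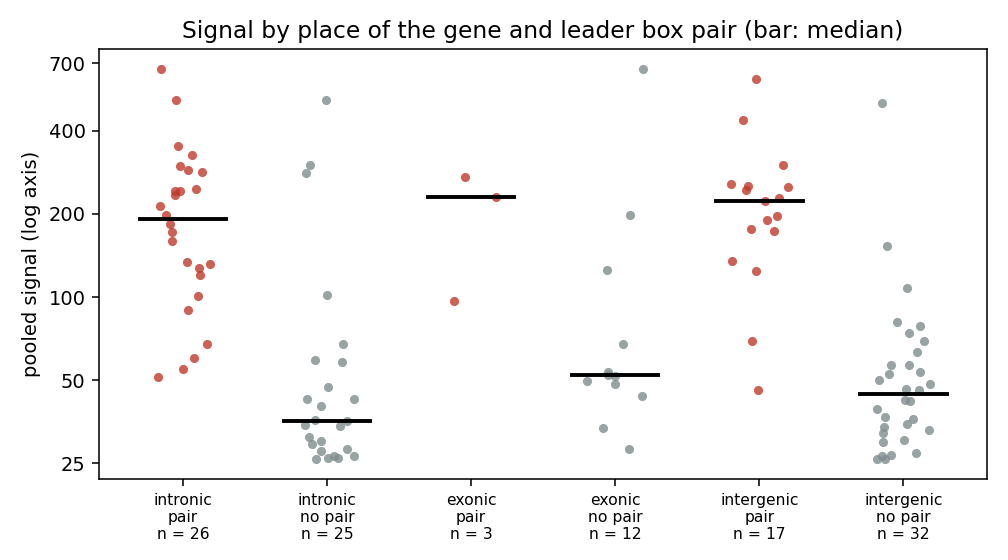
Pooled signal (log axis) of the 115 snoRNA genes by place of the gene, with a leader box pair (red) and without (grey); each point is 1 gene and bars are medians. The medians with a pair are 191 for intronic, 230.2 for exonic and 223 for intergenic genes, and those without are 35.5, 52.0 and 44.4.

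A snoRNA that is cut from its host's transcript must lie on the host's strand. Of the 115 genes, 51 lay in a protein-coding gene on the same strand, with 23 optimal peaks, and 12 in one on the opposite strand, with 6. The median signal was 67.6 for same-strand genes (quartiles 35.8 and 166) and 122 for opposite-strand genes (quartiles 42.0 and 282), a difference of -54.7. It was 41.5 and 102 in replicate 1 and 37.7 and 64.0 in replicate 2. The 12 genes are few, and with summits within 50 bp the difference turned to 12.4, while among genes without a pair it was 1.90. The opposite-strand intronic genes of highest signal were T03F7.8, C04G6.12 in the MAP kinase gene mpk-2 (298 pooled, 158 in replicate 1, 146 in replicate 2), C27H5.9 in pdl-1 (284 pooled, 140.4 in replicate 1, 150.5 in replicate 2) and B0334.12. In such a place the host's own transcript holds the complement of the snoRNA. Of the 26 intronic genes with an optimal peak, 6 were on the strand opposite to the host, beside 11 of all 51 intronic genes with a region, a similar share.

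Ribosomal protein genes, the classic hosts of intronic snoRNAs, were hosts of 0 of the 50 genes with an optimal peak, of 1 of the 65 with a weaker region and of 18 of the 231 with none. The 1 was K11H12.13 in rpl-15, with 36.0 pooled, 15.3 in replicate 1 and 21.2 in replicate 2. K07C5.10 lies in an intron of nol-56, which encodes a core protein of C/D particles, and had 27.8 pooled, no region in replicate 1 and 20.4 in replicate 2. Of the 56 genes with a leader pair, with or without a region, 0 lay in a ribosomal protein gene, against 19 of the 290 without a pair.

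A run of TTTT, the letters at which RNA polymerase III can stop, was sought on the gene strand behind each gene. It began within 10 bases of the annotated end at 39 of the 50 genes with an optimal peak (78%), at 20 of the 65 with a weaker region (30.8%) and at 56 of the 231 with none (24.2%). Within 50 bases it was found at 47 of the 50 (94%), at 45 of the 65 (69.2%) and at 149 of the 231 (64.5%). Over all 346 genes it began within 10 bases at 42 of 56 genes with a leader pair (75%) and at 73 of 290 without one (25.2%). In the 47 the run began at a median of 5 bases past the gene (quartiles 1.5 and 8.5). A match of letters is a description and not evidence that transcription ends there.

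Another snoRNA gene lay within 1000 bp of 11 of the 115 genes (9.57%) and of 35 of the 231 without a region (15.2%). The 11 clustered genes had 3 optimal peaks and a median signal of 36.0 (quartiles 31.1 and 176), against 47 optimal peaks and a median of 68.6 (quartiles 42.4 and 198) for the 104 single genes. In replicate 1 the medians were 27.3 and 46.1, and in replicate 2 they were 31.9 and 40.1. The clustered genes of highest signal were C51F7.3, C51F7.4, C27H5.9 and Y111B2A.36, a gene in ssl-1 with 67.6 pooled, 27.3 in replicate 1 and 36.9 in replicate 2. The ranges of the groups overlapped. Sequence copies, at least 80% identical over 80% of both genes, numbered 7 with a region, of which 2 had an optimal peak, with a median of 69.5 against 65.4 for the 108 others. A family of 5 snoRNA genes, each at least 88.8% identical to the others and without a leader pair, included F25H2.15 (41.9) and Y67A10A.14, while its other members F59C6.15, F43A11.8 and T19C4.12 had no region. In 110 of the 115 genes, and in 50 of 50 with an optimal peak, every 32-mer within 50 bp of the summit occurs once in the genome, and the other 5, K09E9.5 among them, had no optimal peak.

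A class was assigned to a minority of the snoRNA genes from short motifs in the annotated sequence. By a C box TGATGA near the start with a D box CTGA near the end, 8 of the 115 were C/D-like. By an ACA within the last 10 bases and an H box motif (ANANNA) anywhere in the gene, 33 were H/ACA-like, 1 was both and 73 were neither. The order of H box and ACA, the length and the folding of the RNA were not checked, so the H/ACA-like label is loose. Over all 346 genes 13 were C/D-like and 95 H/ACA-like. The median signal was 82.0 for C/D-like genes and 81.2 for H/ACA-like genes, with 4 and 16 optimal peaks. The difference of 0.752 turned to -17.9 without the region shared by C51F7.3 and C51F7.4, so no order of the classes is given. C51F7.3, W03C9.9 and F55A11.10 (288) were the C/D-like genes of highest signal, and C10C6.8 and Y43F8C.22 the H/ACA-like ones.

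Peaks at tRNA genes, from which the boxes were taken, were set beside those at snoRNA genes. The 152 optimal peaks at tRNA genes had a median signal of 121 (quartiles 100.5 and 179.6, highest 345), and the 222 at neither class had a median of 104 (quartiles 92.1 and 129), beside 229 for the 50 snoRNA genes with an optimal peak. An annotated tRNA gene lay within 100 bp of 0 of the 115 summits, and a pseudogene of 3. A gene annotated as class ncRNA lay near 26 of the 115 summits. Within 50 bp of the summit the share of G and C had a median of 56.4% in the 49 optimal regions of the snoRNA genes, against 44.6% in the 65 other regions of snoRNA genes, 51.5% in the optimal regions of tRNA genes, 49.5% in the other optimal peaks and 41.6% in all candidates. CANNTG, the E-box bound by basic helix-loop-helix factors, was found in that window in 19 of the 49 (38.8%), in 51 of the 152 (33.6%), in 64 of the 222 (28.8%) and in 35.0% of all candidates, and in the 65 snoRNA regions outside the optimal set it was found in 26 (40%). CAGCTG was found in 3 of the 49 (6.12%), in 1 of the 152 (0.658%), in 7 of the 222 (3.15%), in 4 of those 65 (6.15%) and in 2.65% of all candidates. The snoRNA counts are small. Both motifs read the same on either strand. The base composition moves with the optimal set, and its part in the signal was not tested.

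Replicates placed the genes in a similar order. Over the 92 genes with a region in both, Spearman's rho between the signals of replicate 1 and replicate 2 was 0.918 and Pearson's r was 0.964, across genes that share their libraries and were chosen by the pooled signal. The Spearman value was 0.885 over the 50 genes with an optimal peak and 0.387 over the 42 others. Optimal peaks were chosen for agreement between replicates, so these values are a description only. The widest gaps in rank between replicates were at genes of low signal. Over all candidates the quartiles of signal were 16.5 and 23.9 in replicate 1 and 17.5 and 25.3 in replicate 2, so many ranks lie within a narrow range of signal. What part this had in the gaps was not tested. At E01A2.11 the signals were 15.8 in replicate 1 and 31.9 in replicate 2. E01A2.11, in akir-1, ranked 25040 in replicate 1 and 2710 in replicate 2, R08C7.19 ranked 23415 in replicate 1 and 3742 in replicate 2, and ZK484.11 ranked 5613 in replicate 1 and 24844 in replicate 2.

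**Figure D5:**
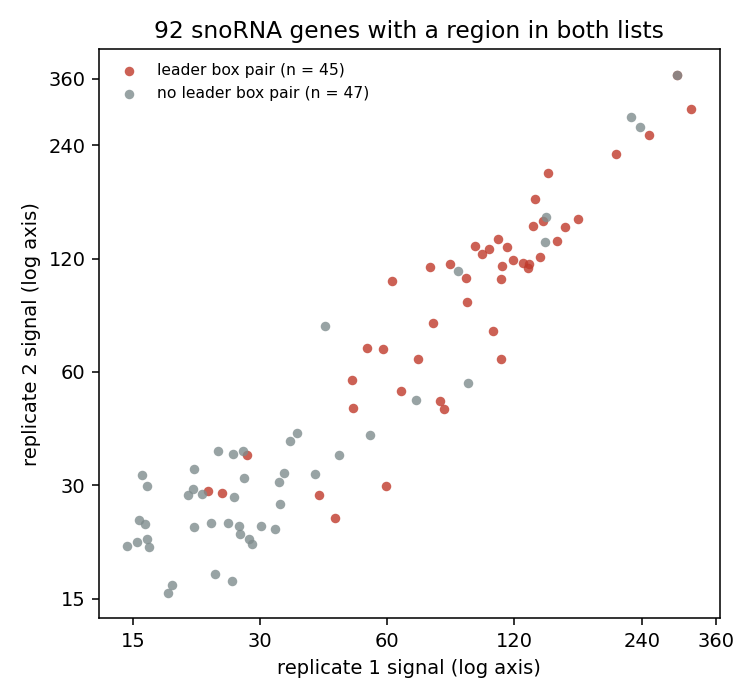
Signal of replicate 1 (horizontal) and replicate 2 (vertical), both on log axes, for the 92 snoRNA genes with a region in both lists; red marks the 45 with a leader box pair and grey the 47 without. Most genes high on both axes have a pair, and those with a pair have medians of 104 in replicate 1 and 114 in replicate 2.

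Just inside the optimal set stood R12E2.17 (101), ZK546.18 (97.1) and W08G11.6 (89.5), each with a leader pair, and just outside it C26C6.13 (81.2), Y53F4B.47 (78.3) and Y67A10A.14 (73.8), all 3 without one. W08G11.6 had 59.7 in replicate 1 and 29.9 in replicate 2. By distance, F25H2.15 and R08C7.19, both at 99 bp, and C26C6.13 at 91 bp were the last genes inside the limit. T23D8.11 at 101 bp, H06I04.8 at 103 bp and C17D12.8 at 104 bp were the first outside it, and C17D12.8 was beside a region with a signal of 108. With the limit at 50 bp, 32 snoRNA genes had an optimal peak in place of 50, and with 200 bp it was 52.

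The genes for the proteins that act with snoRNAs were looked up as well, by the candidate of highest signal from 1000 bp upstream to 200 bp downstream of a transcript start. Of all 19985 protein-coding genes, 38.3% had a candidate there and 1.32% an optimal peak. Of 10 genes for snoRNA-associated proteins, 9 had a candidate and 1 an optimal peak. That was fib-1, which encodes fibrillarin, with a signal of 86.0, near the lower end of the optimal set (lowest 85.3). The other 8 ranged up to 60.3, at dkc-1, which encodes dyskerin, and nol-56 and nol-58, which encode core proteins of C/D particles, had 34.6 and 35.6. A list of 14 genes for RNA polymerase III subunits and factors also held the TATA-binding protein gene and subunits of the SNAPc complex. Of the 14, 5 had a candidate and 0 an optimal peak, with at most 50.8 at mafr-1, a repressor of RNA polymerase III. The largest subunit gene rpc-1 had 44.2 and the TFIIIC gene tftc-1 had 45.1.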

How the data were processed

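Signal values per region were taken as deposited by the authors, on a scale not given in the sources used here. Lists of 30000 candidates were made from the alignments of either replicate or of both together, each time against 1 shared control, per the submitters' file manifests, and the optimal set was drawn from them by the irreproducible discovery rate. The assembly is ce11, per the labels, and no aligner, caller or threshold is named in the sources used here. Genes came from Ensembl release 115 for WBcel235 (ce11), names and sequence from RefSeq. A replicate's value is that of its best region overlapping the pooled one. Boxes are those of tRNA genes, each allowed up to 2 mismatches.

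The genes, lists and comparisons were chosen with earlier results of these data known. Named were the 12 genes of highest signal, the 4 highest in each class compared, and the 3 with the widest gap in rank between replicates. So were those at the limits of the optimal set and of the distance (3 on each side). The leader search, all genes with an optimal peak and no pair, those with a pair and no optimal peak or no region, the copies and their sequences, the nol-56 and rpl-15 hosts and F55A11.10 were added after values had been seen. The optimal set was checked to equal the 423 pooled candidates of highest signal. The matching and the box search were tested on simulated data. Scripts ran in Python 3.11.15 with blastn 2.17.0, matplotlib 3.10.9, scipy 1.17.1, pandas 2.3.3 and numpy 2.4.6.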

Additional observations from a re-analysis of the deposited data

How the results depend on the processing

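Only the genes' medians and counts were recomputed, and signals of 1 replicate run lower than pooled ones, so sizes there are not comparable. Leaving out each replicate in turn, with genes found anew, the difference in median signal ranged from 46.2 to 50.7 for upstream minus other summits. It ranged from -3.82 to 8.72 for intronic minus intergenic genes, from -54.9 to -37.1 for same minus opposite strand and from -16.4 to -12.5 for clustered minus single genes. For genes with both boxes at the summit minus all others it was 93.0 to 97.4. For C/D-like minus H/ACA-like genes it was 3.53 to 15.9, and for the leader pair minus none 82.3 to 89.7. Upstream summits lay 42.5 to 50 bp before the gene. Counts of genes with a candidate (111 to 120), an optimal rank (47 to 49) and both a pair and an optimal rank (38 to 40) stayed within 1.5 times the reported counts.

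With a limit of 50 bp, 32 genes had an optimal peak, 24 of them with a pair, and the same differences, in that order, were 71.0, 1.63, 12.4, -23.5, 159, -14.4 and 133. With 200 bp they were 50.3, 8.35, -32.2, -21.6, 203, -3.34 and 156. With each region counted once, intronic minus intergenic was 21.7, boxes 193, C/D-like minus H/ACA-like -17.9 and the leader pair 155. Without the region shared by C51F7.3 and C51F7.4 these were 21.7, 189.7, -17.9 and 155. Counting the first part of the gene as upstream gave 71.0 for summit place. Any host class gave 7.73 for intronic minus intergenic, introns alone -105.7 for strand, 5000 bp clusters -22.6, and copies in place of clusters 4.03. Boxes within 150 bp or on the gene strand alone gave 192. Exact leader pairs gave 192 and 15 optimal genes, and pairs with at most 1 mismatch 158. Within genes with a pair, intronic minus intergenic was -31.9 and same minus opposite strand -89.5, and within genes without one they were -8.86 and 1.90, with 3.70 for summit place. The leader pair, the exclusion of the shared region and these splits by pair were chosen after seeing the data. The leader pair, the boxes and the summit place kept their direction in all of these settings, as did clustered minus single genes except where copies took the place of clusters, while the intronic, strand and class comparisons did not. The cause was not tested.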
